A study of Mus musculus with 2 samples.

Results

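The collagen genes of mouse intestine were compared between 1 library of wild-type (WT) mice and 1 library of ERAP1+/- mice. They were taken by symbol as every gene named Col, a number, a and a number, which gave 44 of the 40879 gene symbols in the files. Each library was made from RNA pooled from 3 mice on the C57BL/6 background, 8 weeks old at the start of the study, and the labels name no treatment. The ERAP1+/- mice came from a line in which exons 6 and 7 of Erap1 lie between loxP sites and were crossed with a Cre-expressing strain whose promoter is not given in the sources used here. Only 1 library stands for each genotype, so no difference has a replicate check and no p-value is given.

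Collagens are the main structural proteins of the extracellular matrix, and their chains wind around each other into a triple helix. In the gut wall, fibroblasts and smooth muscle cells make the fibrils of the submucosa, while type IV collagen forms the sheet of the basement membrane under epithelium, vessels, nerves and muscle. Stratified epithelium such as skin is tied to its basement membrane by hemidesmosomes, which hold the transmembrane collagen XVII, and by anchoring fibrils of collagen VII. The simple epithelium of the intestine uses a simpler kind of hemidesmosome without collagen XVII.

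The triple helix needs glycine as the first residue of each triplet, so a collagen gene can be recognized by a codon of the form GGN at the head of each triplet of codons. The coding sequence of the transcript with the longest one was read for all 44 genes from GENCODE M21 on GRCm38. The 4 sequences below, given 5′ to 3′, are shown because their genes carry results given here, and each spans the end of the longest unbroken repeat of its gene. Capitals mark the glycine codons of that repeat, and the repeat ends where the capitals stop.
Col3a1: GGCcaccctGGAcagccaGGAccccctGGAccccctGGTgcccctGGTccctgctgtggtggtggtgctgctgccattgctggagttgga
Col4a1: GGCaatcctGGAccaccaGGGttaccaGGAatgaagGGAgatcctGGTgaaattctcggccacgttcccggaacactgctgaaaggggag
Col17a1: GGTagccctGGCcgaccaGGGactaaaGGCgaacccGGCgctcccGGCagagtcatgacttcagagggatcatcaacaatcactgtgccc
Col6a4: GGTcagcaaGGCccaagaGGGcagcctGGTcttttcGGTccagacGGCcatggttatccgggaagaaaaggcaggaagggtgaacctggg

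The stretches are coding positions 3532 to 3621 of Col3a1-201 on chromosome 1, 433 to 522 of Col4a1-201 on chromosome 8, 2392 to 2481 of Col17a1-201 on chromosome 19 and 4972 to 5061 of Col6a4-201 on chromosome 9, counted from the start codon. In the 11 fibrillar genes the longest repeat ran for 216 to 344 triplets, with a median of 338. In no other class did it pass 113 triplets, a length reached among the fibril-associated collagens, and the 6 type IV genes had repeats of 39 to 66 triplets. The type IV chains carry their glycine codons in many shorter repeats, with 22 repeats of at least 6 triplets in Col4a1. Of the coding exons of fibrillar genes, 47.0% were exactly 54 bases long, against 4.05% of those of type IV genes.

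**Figure D1:**
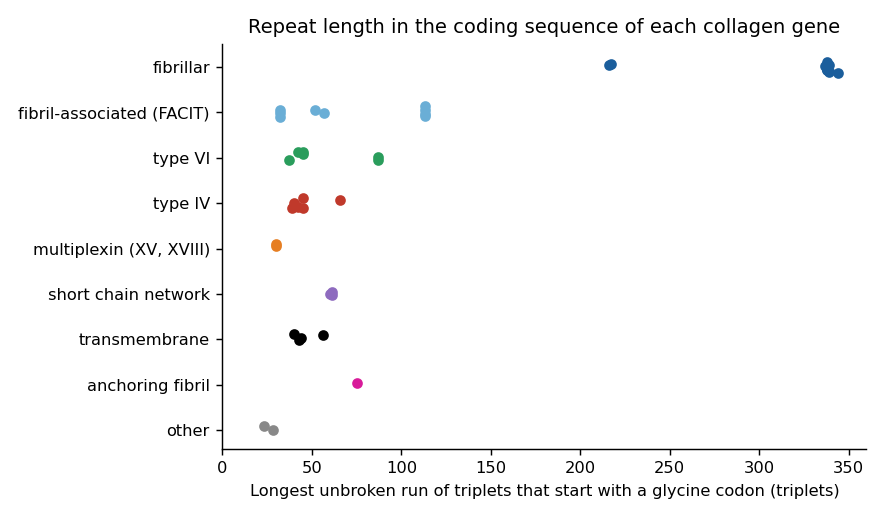
Longest unbroken run of triplets that begin with a glycine codon, in triplets on the x axis, for each of the 44 collagen genes (1 point a gene) by class on the y axis, with a small vertical offset to part the points. All 11 fibrillar genes lie at 216 triplets or more and all genes of the other classes at 113 or fewer.

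The library totals were 8114826 reads for WT and 8907515 for the library labelled ERAP1+/-. The targeted gene, Erap1, had 229 and 2 reads, a level 0.730% of that in WT, which is lower than the label of 1 intact copy describes, so the second library is called by its label. Markers of intestinal epithelium were abundant in both libraries, with 9812 and 9413 reads of Epcam, and Krt20 (5156 and 2674) was the only one of 9 past 2-fold. The 7 markers of suprabasal epidermis, all more than 2-fold lower, summed to 19191 reads in WT and 177 in the library labelled ERAP1+/-, and the 9 of skeletal muscle, 8 of them more than 2-fold lower, to 7575 and 175. Krt1 had 1049 and 6 reads and Acta1 1490 and 42. In bulk tissue, fewer cells of a type and less RNA per cell cannot be told apart.

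All values follow the same order, with the WT library first and the library labelled ERAP1+/- second. Levels are in CPM, the reads of a gene relative to library size, with the libraries brought to a common scale by TMM, a trimmed mean of the log ratios between them. Scaling by the totals instead adds 0.13 to each log2 ratio. Differences are on the log2(CPM + 1) scale, on which changes of genes near 0 reads appear too small. Ratios are of the scaled levels, ERAP1+/- over WT, and values in parentheses after a ratio are its exact 95% interval. The intervals cover counting error only, and the differences between mice and between pools are not in them.

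The collagen genes as a whole differed little between the libraries. They took 21178 reads (0.261% of the library) and 24297 reads (0.273%), a ratio of 0.958 (95% interval 0.941 to 0.976), or 1.05 when the libraries were scaled by their totals. Of the 44 genes, 31 had at least 10 reads over the 2 libraries, 9 had fewer, and 4 had none. Over the 31 genes the median log2 difference was -0.05, and the quartiles were -0.20 and 0.27. Over all 16142 genes with as many reads the median was 0.00 and the quartiles were -0.31 and 0.30.

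By the first rule, a gene was called when it differed more than 2-fold and its log2(CPM + 1) was 4 or more in either library. None of the 15 collagen genes past that level was called, while 5.34% of all 8013 genes past it were (1.39% higher and 3.96% lower). The ratios of the 15 genes ran from 0.795 for Col4a2 to 1.38 for Col18a1. At the lower limit of 10 reads in 1 library, 2 of 29 collagen genes differed more than 2-fold on the log2(CPM + 1) scale, 1 higher and 1 lower, against 9.06% of all 15334 genes (3.14% higher and 5.92% lower). These were Col6a4 and Col17a1. Their log2 differences were 1.78 and -1.94, and the next in size was that of Col4a4 at -0.59. Without the added 1 CPM, Col4a4 (14 and 8 reads) was also past 2-fold, with a ratio of 0.477 and an interval of 0.173 to 1.22 that included 1.

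**Figure D2:**
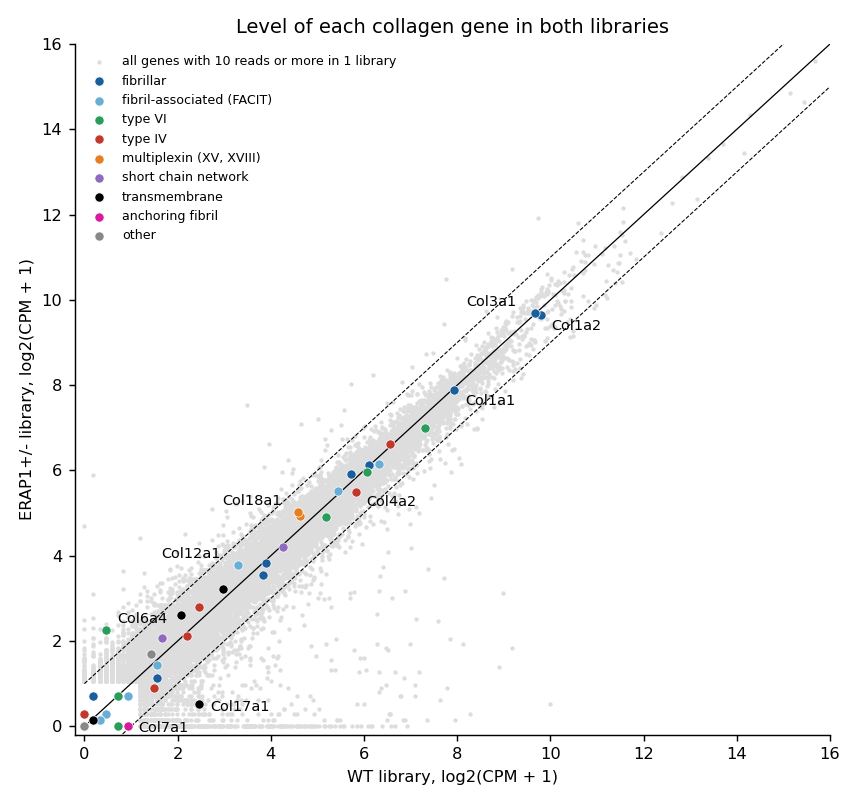
Level of each collagen gene as log2(CPM + 1) in the WT library (x axis) and in the library labelled ERAP1+/- (y axis), coloured by class, over all genes with at least 10 reads in 1 library (grey); the solid line marks equal levels and the dashed lines a 2-fold difference on this scale. The collagen genes lie between the dashed lines except Col17a1, below the lower one with 35 and 4 reads, and Col6a4, above the upper one with 3 and 35 reads. Among the others, Col7a1 (7 and 0 reads, log2 difference -0.93) lies nearest to a dashed line.

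Fibrillar collagens carry the tensile strength of the gut wall, and they held most of the collagen reads. Col1a2 had 6860 and 7410 reads, Col3a1 6337 and 7673, and Col1a1 1888 and 2186. Together these genes of collagens I and III made up 71.2% and 71.1% of all collagen reads. The kit primes at the poly(A) tail and reads 1 fragment of a transcript, so reads were not divided by length.

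The ratio of Col1a2, the second chain of collagen I, was 0.902 (0.873 to 0.933). That of Col1a1, its main chain, was 0.967 (0.909 to 1.03), and that of Col3a1, the chain of collagen III in soft tissue, was 1.01 (0.978 to 1.05). Under scaling by the totals the same ratios were 0.984, 1.05 and 1.10, so the direction of Col1a1 depended on the scaling. Collagen V starts fibrils and limits their width. Its chains Col5a1 (525 and 638 reads), Col5a2 (399 and 552) and Col5a3 (103 and 99) had ratios of 1.02, 1.16 and 0.803. Only the interval of Col5a2 (1.01 to 1.32) lay apart from 1 among these. Col27a1 had 108 and 122 reads and Col11a1, a fibrillar chain best known from cartilage, 15 and 11.

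Col2a1 and Col11a2, also fibrillar chains of cartilage, were close to absent. Col2a1, the main collagen of cartilage, had 1 read in each library, and Col11a2 had 2 and 1. Of the 6 chondrocyte markers only Sox9 (1770 and 2694 reads), a transcription factor also found in intestinal crypts, had at least 10 reads, and Acan, the proteoglycan of cartilage, had none. Summed over the 11 genes, the fibrillar class had a ratio of 0.962 (0.942 to 0.982), or 1.05 under scaling by the totals.

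Fibril-associated collagens sit on the surface of fibrils and link them to other matrix. Col14a1 had 618 and 650 reads, and its ratio was 0.879 (0.786 to 0.982). Col16a1 had 331 and 414 reads with a ratio of 1.04 (0.902 to 1.21). Col12a1, which binds collagen I fibrils, had 68 and 118 reads and a ratio of 1.45 (1.07 to 1.98). Col9a2 (15 and 16 reads) and Col20a1 (7 and 6) were low in both libraries. The class summed to 1044 and 1207 reads, a ratio of 0.966 (0.888 to 1.05).

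Type VI collagen forms beaded filaments around cells. Its abundant chains were lower or near equal, with 276 and 268 reads of Col6a1, 510 and 572 of Col6a2, and 1216 and 1184 of Col6a3. The ratios were 0.811 (0.683 to 0.963), 0.937 (0.830 to 1.06) and 0.813 (0.750 to 0.882). Scaling by the totals gave 0.885, 1.02 and 0.887.

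Col6a4 encodes a further chain of the type VI family that resembles the chain of Col6a3, and it was furthest above its WT level among the 31 genes. It had 3 reads in WT and 35 in the other library, 0.386 and 3.76 CPM, a ratio of 9.75 (3.07 to 49.5) whose width comes from the 3 WT reads. Col6a4 (GRCm38 chromosome 9, 105989454 to 106096783, minus strand) stands in a row with Col6a5 (105856078 to 105960643) and Col6a6 (105687809 to 105828160) on the same strand. Of its neighbours, Col6a5 had 5 and 6 reads and Col6a6 5 and 0. By its exact 95% limit Col6a6 was lower by 1.10-fold or more. No exon of another gene overlapped the last 500 bases of an annotated coding transcript of Col6a4.

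In the basement membrane, the heterotrimer of Col4a1 and Col4a2 is the common form of collagen IV. Col4a1 had 719 and 910 reads and a ratio of 1.06 (0.958 to 1.17). Col4a2 had 431 and 410 reads and a ratio of 0.795 (0.692 to 0.912). The less common chains had few reads. Col4a5 had 35 and 55, Col4a6 28 and 31, Col4a4 14 and 8, and Col4a3 0 and 2. The intervals of Col4a4, Col4a5 and Col4a6 all included 1. Col4a5 and Col4a6 lie on the X chromosome, and Xist, the transcript of the inactive X, had 1635 and 6451 reads. The part of a difference in sex between the pools in these values was not tested.

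Collagens XV and XVIII are multiplexins, which combine a broken triple helix with sugar chains and sit in or beside basement membranes of vessels, muscle and epithelium. Col15a1 had 183 and 274 reads and a ratio of 1.25 (1.03 to 1.52). Col18a1, the precursor of endostatin, had 178 and 294 reads and a ratio of 1.38 (1.14 to 1.67). Both were higher in the library labelled ERAP1+/- under both scalings, and both stayed under 2-fold. Their summed ratio was 1.31 with a lower bound of 1.15, against 0.964 (0.892 to 1.04) for the 6 type IV genes. The 7 endothelial markers had a median log2 difference of 0.12, with 4 higher and 3 lower, and Pecam1 had 283 and 369 reads. Their part in the values of Col15a1 and Col18a1 was not tested. The reads at the 3′ end do not tell apart the transcripts of Col18a1 that start at its separate promoters.

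**Figure D3:**
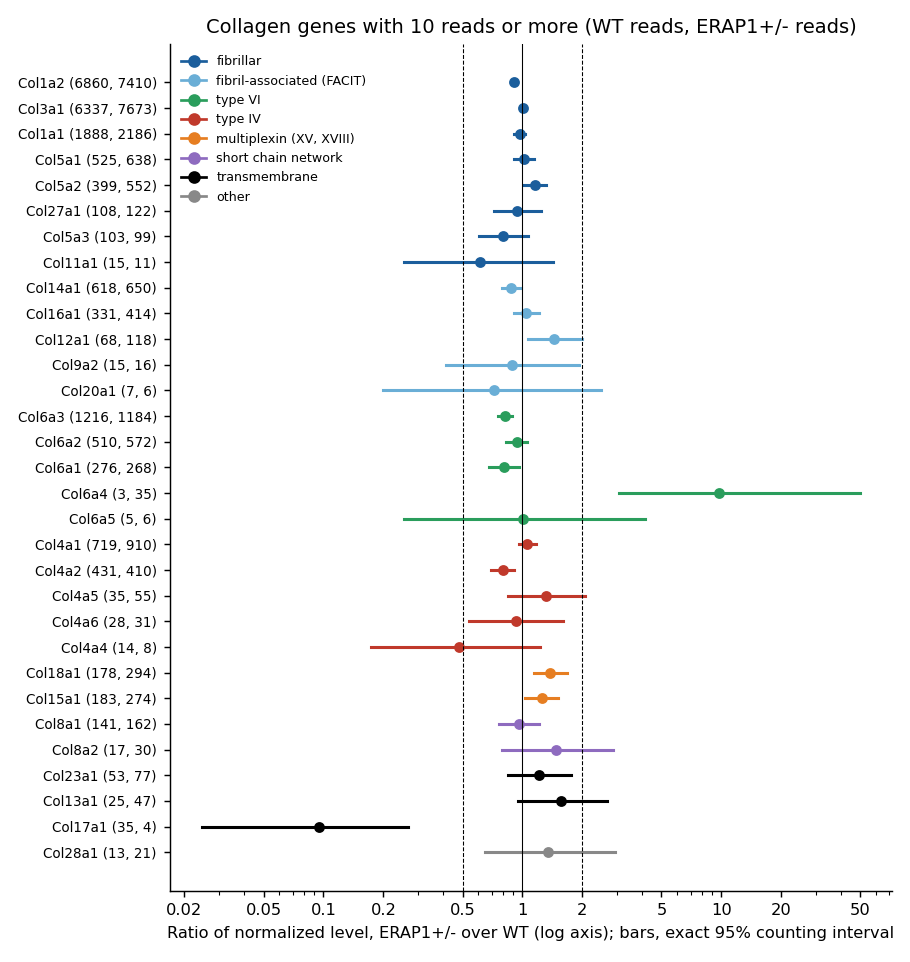
Ratio of the scaled level, ERAP1+/- over WT, on a log axis for the 31 collagen genes with at least 10 reads over the 2 libraries, with exact 95% counting intervals as bars and the reads of both libraries beside each name; colours mark the classes, the solid line a ratio of 1 and the dashed lines 2-fold. The intervals of Col17a1 (0.0246 to 0.267) and Col6a4 (3.07 to 49.5) lie wholly outside the dashed lines, and those of abundant genes such as Col1a2 (0.873 to 0.933) are narrow and near 1.

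Collagen XVII, the transmembrane anchor of basal keratinocytes, was furthest below its WT level among the 31 genes. Col17a1 had 35 reads in WT and 4 in the other library, 4.50 and 0.430 CPM, which is 10.5-fold lower (3.75 to 40.6). It is read from the minus strand of chromosome 19, from 47646344 to 47692094. Col7a1, the only gene of the anchoring fibrils, had 7 reads in WT and none in the library labelled ERAP1+/-. Taking 3 reads for the count of 0, Col7a1 came out 2.79-fold lower, a value that leaves out the counting error of the 7 WT reads. The exact 95% limit was 1.73-fold, and with so few reads Col7a1 entered no call rule.

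Keratins of the basal layer were lower in the same library. Krt5 had 418 and 73 reads, Krt14 623 and 97, Krt15 296 and 18, and Trp63, the regulator of the basal layer, 23 and 0. Relative to Krt5, Krt14 and Krt15 together, Col17a1 had 0.0262 reads per keratin read in WT (0.0182 to 0.0366) and 0.0213 in the library labelled ERAP1+/- (0.00574 to 0.0554). The ratio of these ratios was 0.813 with an interval from 0.208 to 2.31, which rests on 4 Col17a1 reads in the library labelled ERAP1+/-. A difference between Col17a1 and the basal keratins was therefore not detectable at this depth. The part of stratified epithelium in the value of Col17a1 was not tested. All 7 basal markers were lower, 4 of them more than 2-fold, and the list summed to 5535 and 4188 reads because Itga6, Itgb4 and Dst stand in it.

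Other hemidesmosome genes, which simple epithelium also uses, were closer to their WT levels in value. Itga6 and Itgb4, the integrin of the hemidesmosome, had ratios of 0.866 and 0.614, with 1839 and 1907 reads and 951 and 699 reads. Plec, its cytoplasmic linker, had 2767 and 2227 reads. On the log2(CPM + 1) scale none of the 10 genes of the list of hemidesmosome and anchoring partners differed more than 2-fold. Fras1, a basement membrane protein, had 8 and 26 reads and a log2 difference of 0.90, while its ratio without the added 1 CPM was 2.71 (1.19 to 6.94).

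The other transmembrane collagens had ratios above 1 or a single read. Col13a1, found at muscle and nerve contacts, had 25 and 47 reads and a ratio of 1.57 (0.947 to 2.66), and Col23a1 had 53 and 77 reads and a ratio of 1.21 (0.844 to 1.76). Col25a1 had 1 read in each library. Among the short chain network collagens, Col8a1 of vessel walls had 141 and 162 reads, Col8a2 17 and 30, and Col10a1, the collagen of growth cartilage, none. Col28a1, known from peripheral nerve, had 13 and 21 reads.

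The remaining genes with fewer than 10 reads over the 2 libraries were Col24a1 (1 and 6 reads), Col19a1 (3 and 2) and Col9a3 (2 and 1). No read was counted for Col9a1, Col10a1, Col22a1 and Col26a1. Since a count of 0 leaves room for 3 reads (0.386 CPM for WT and 0.322 CPM for the library labelled ERAP1+/-), lower levels of these genes were not detectable at this depth.

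At the level of counting error, 11 of the 29 collagen genes with at least 10 reads in 1 library had an interval without 1, with 5 higher and 6 lower. Among all 15334 genes the share was 46.4%, with 21.5% higher and 24.9% lower. The higher genes were Col5a2, Col6a4, Col12a1, Col15a1 and Col18a1, and the lower ones Col1a2, Col4a2, Col6a1, Col6a3, Col14a1 and Col17a1. Scaling by the totals gave 8 higher and 3 lower collagen genes, and 30.4% and 18.2% of all genes. The lower genes under both scalings were Col4a2, Col6a3 and Col17a1.

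Ratios between chains within a library do not depend on the scaling. Of 7 pairs of chains, 2 had a ratio of ratios whose interval left out 1, with no adjustment for the number of pairs. For Col4a1 over Col4a2 the reads gave 1.67 (1.48 to 1.88) in WT and 2.22 (1.97 to 2.50) in the library labelled ERAP1+/-, a change of 1.33 times (1.12 to 1.58). For Col3a1 over Col1a2 they gave 0.924 (0.893 to 0.956) and 1.04 (1.00 to 1.07), a change of 1.12 times (1.07 to 1.17). Col1a1 over Col1a2 was 0.275 and 0.295, a change of 1.07 times (0.999 to 1.15). Summed type IV reads per fibrillar read were 0.0756 and 0.0757, a change of 1.00 times (0.925 to 1.09).

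**Figure D4:**
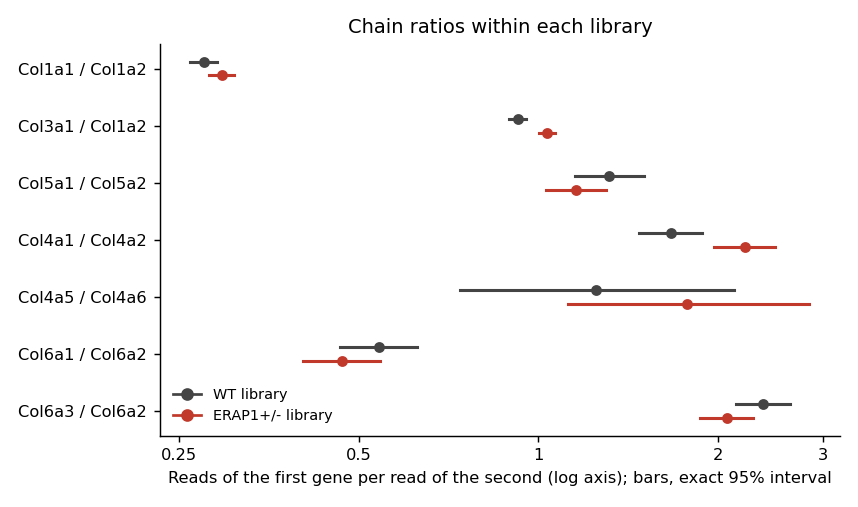
Reads of the first collagen gene per read of the second within the WT library (grey) and the library labelled ERAP1+/- (red), on a log axis, for 7 pairs of chains with exact 95% intervals as bars. The 2 intervals lie apart for Col4a1 over Col4a2 (1.67 and 2.22) and for Col3a1 over Col1a2 (0.924 and 1.04), and overlap for the other pairs.

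The pair Col4a1 and Col4a2 is transcribed from a shared start region in opposite directions. In GENCODE M21 the 2 genes overlap by 22 bases at their starts on chromosome 8, Col4a1 on the minus strand (11198423 to 11312826) and Col4a2 on the plus strand (11312805 to 11449287). Col4a3 and Col4a4 start 71 bases apart on chromosome 1, and Col4a5 and Col4a6 start 1308 bases apart on the X chromosome. RefSeq promoter windows on GRCm38.p6, each of 300 bases around a transcription start, were found for 35 of the 44 genes in 38 windows.

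The windows of the shared Col4 start and of both genes that passed 2-fold are given 5′ to 3′ on the strand of the gene. Capitals mark matches on either strand to GGGCGG (GC box), CCAAT or TATAAA, and no 2 different motifs overlapped. Col4a1 is chr8:11312777-11313076 on the minus strand, Col4a2 chr8:11312555-11312854 on the plus strand, Col6a4 chr9:106096642-106096941 on the minus strand and Col17a1 chr19:47691993-47692292 on the minus strand.
Col4a1: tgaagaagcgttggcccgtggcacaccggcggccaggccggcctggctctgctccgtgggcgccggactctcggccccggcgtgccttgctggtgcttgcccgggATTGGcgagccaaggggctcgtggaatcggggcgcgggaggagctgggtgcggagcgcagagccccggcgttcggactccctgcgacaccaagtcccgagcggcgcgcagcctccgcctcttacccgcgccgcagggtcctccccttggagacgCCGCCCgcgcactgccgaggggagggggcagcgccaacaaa
Col4a2: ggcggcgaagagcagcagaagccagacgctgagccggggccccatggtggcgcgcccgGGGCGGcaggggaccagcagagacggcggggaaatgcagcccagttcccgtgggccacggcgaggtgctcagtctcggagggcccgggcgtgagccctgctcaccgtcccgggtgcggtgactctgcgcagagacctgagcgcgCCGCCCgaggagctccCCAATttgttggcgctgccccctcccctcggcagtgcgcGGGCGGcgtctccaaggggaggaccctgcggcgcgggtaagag
Col6a4: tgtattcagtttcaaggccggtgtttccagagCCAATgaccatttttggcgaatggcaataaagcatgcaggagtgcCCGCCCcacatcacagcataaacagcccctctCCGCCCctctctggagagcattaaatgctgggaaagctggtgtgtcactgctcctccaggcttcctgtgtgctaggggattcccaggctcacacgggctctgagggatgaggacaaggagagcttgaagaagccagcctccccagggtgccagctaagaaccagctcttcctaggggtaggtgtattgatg
Col17a1: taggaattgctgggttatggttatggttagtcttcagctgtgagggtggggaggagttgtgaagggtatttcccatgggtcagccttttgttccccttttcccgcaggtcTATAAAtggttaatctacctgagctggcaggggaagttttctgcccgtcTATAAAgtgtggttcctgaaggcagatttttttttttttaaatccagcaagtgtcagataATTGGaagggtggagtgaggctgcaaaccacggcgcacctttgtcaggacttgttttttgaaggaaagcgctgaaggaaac

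The windows of Col4a1 and Col4a2 share 78 bases, from 11312777 to 11312854. GGGCGG was in 23 of the 38 collagen windows and in 35.7% of all 32851 windows of this length, CCAAT in 13 of 38 and 37.4%, and TATAAA in 5 of 38 and 13.6%. The median share of G or C was 59.8% in the collagen windows and 52.7% in all windows, and its part in the GGGCGG count was not tested. A GGGCGG match in the bases shared by Col4a1 and Col4a2 lies in both windows. The Col17a1 window had 2 matches to TATAAA and none to GGGCGG, with 46.3% of its bases G or C, while the Col4a1 window had 74% and the Col6a4 window 55%. These matches describe letters in the window and not binding.

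Genes that make, cross-link and break down collagen were described by 9 lists with 80 genes, of which 72 had at least 10 reads in 1 library. Of the 72, 2 were more than 2-fold higher and 2 more than 2-fold lower on the log2(CPM + 1) scale, where the shares over all genes were 3.14% and 5.92%. By the ratio without the added 1 CPM, 5 more genes were past 2-fold, with Crtap, Fras1 and Itga2 higher and Loxl3 and Tll2 lower. The enzymes and chaperones that fold procollagen numbered 18, none past 2-fold on the log2 scale. Their median log2 difference was 0.03, with 10 higher and 8 lower in value. Crtap, a partner of prolyl 3-hydroxylase, had 21 and 52 reads, a log2 difference of 0.83 and a ratio of 2.07 (1.22 to 3.62). Serpinh1, the collagen chaperone of the endoplasmic reticulum, had 271 and 330 reads and a ratio of 1.02. P4hb, a subunit of prolyl hydroxylase, had 1740 and 2127 and a ratio of 1.02. The genes of its other subunits were lower in value, with ratios of 0.753 (0.598 to 0.947) for P4ha1, 0.725 (0.441 to 1.19) for P4ha2 and 0.647 (0.363 to 1.14) for P4ha3. P3h4 had a ratio of 0.741 (0.590 to 0.929). Ppib, a prolyl isomerase, had 799 and 1295 reads and a ratio of 1.35 (1.24 to 1.48).

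The 8 genes of propeptide cleavage had a median of -0.38 and were all below WT in value under both scalings, 3 of them (Adamts2, Adamts14 and Tll1) with equal reads in the 2 libraries. Intervals without 1 were found for Pcolce2 and for Bmp1 (87 and 70 reads, ratio 0.672). Tll2 had 12 and 6 reads and a ratio of 0.418 (0.129 to 1.20). Pcolce2, an enhancer of this cleavage, had 108 and 58 reads and was 2.23-fold lower (1.61 to 3.12), though its log2 difference came within 2-fold under scaling by the totals (-0.93). The 5 genes of the lysyl oxidase family, which cross-link fibrils, had a median of -0.30, with Loxl1 at 424 and 366 reads (ratio 0.721) and Lox at 45 and 44. Loxl3 had 32 and 19 reads and a ratio of 0.496 (0.266 to 0.902), and Loxl4 9 and 17 and a ratio of 1.58 (0.665 to 4.02). Of the 4 inhibitors of metalloproteinases, Timp2, Timp3 and Timp4 had ratios of 0.704, 0.766 and 0.804, and Timp1 (20 and 28 reads) one of 1.17.

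Of the 10 genes of collagen degradation, 8 had at least 10 reads in 1 library, 4 of these were higher and 4 lower in value, and 2 were more than 2-fold higher. Mmp3, stromelysin 1, had 10 and 41 reads, a ratio of 3.42 (1.69 to 7.67). Mmp10, stromelysin 2, had 0 and 24 reads. With 3 reads in place of the 0 it came out 6.68-fold higher, a value that leaves out the counting error of the 24 reads. The exact 95% limit was 5.03-fold. The collagenase Mmp13 had 15 and 34 reads (ratio 1.89, interval 1.00 to 3.74), and the gelatinase Mmp2 had 180 and 275 (ratio 1.28). Mrc2, a receptor that takes up collagen, had 64 and 44 reads and a ratio of 0.574 (0.382 to 0.856). The ratios of Mmp9, Ctsk and the membrane-bound Mmp14 were 0.673, 0.769 and 0.980.

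None of the 7 collagen receptors with enough reads passed 2-fold on the log2 scale. Itga2, the integrin chain that binds collagen I on epithelium, had 74 and 186 reads, a ratio of 2.10 (1.60 to 2.79) and a log2 difference of 1.00, just inside the limit, and 1.11 under scaling by the totals, outside it. The receptor kinases Ddr1 and Ddr2 had ratios of 0.821 and 0.831. The proteoglycans that bind fibrils had a median of -0.12 (0.00 under scaling by the totals), with 4 higher and 5 lower in value. Among them, Dcn, which regulates fibril width, had 9267 and 7568 reads (ratio 0.682). Prelp had 188 and 314 reads and a ratio of 1.40 (1.16 to 1.68). Kera, keratocan, had 23 reads and 1 read, a ratio of 0.0363 (0.000882 to 0.224). The 7 basement membrane partners had a median of -0.10, with Nid1, the link between laminin and collagen IV, at 359 and 308 reads and Lamb1 at 924 and 1379.

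Cells that make collagen were followed by their markers. The 9 fibroblast markers had a median log2 difference of -0.23, with 3 higher and 6 lower. Pdgfra had 305 and 380 reads, and Pi16, of fibroblasts around vessels, had 141 and 77, a log2 difference of -1.05 (-0.93 under scaling by the totals). The 7 smooth muscle markers were all lower, with a median of -0.92, and Myh11 and Tagln passed 2-fold, Myh11 not under scaling by the totals (-0.98). They summed to 66890 and 41192 reads, a ratio of 0.514 (0.508 to 0.521). Fibrillar collagen reads per smooth muscle marker read were 0.243 and 0.454, a change of 1.87 times (1.82 to 1.92) that does not depend on the scaling. The 6 markers of enteric glia and Schwann cells had a median of -0.28 and the 6 of adipocytes one of 0.65, with 4 higher and 2 lower. Of these, Adipoq had 34 and 124 reads, Cfd 163 and 558, Plin4 141 and 128, and Lep 7 and 4. The part of these cell types in the collagen values was not tested.

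**Figure D5:**
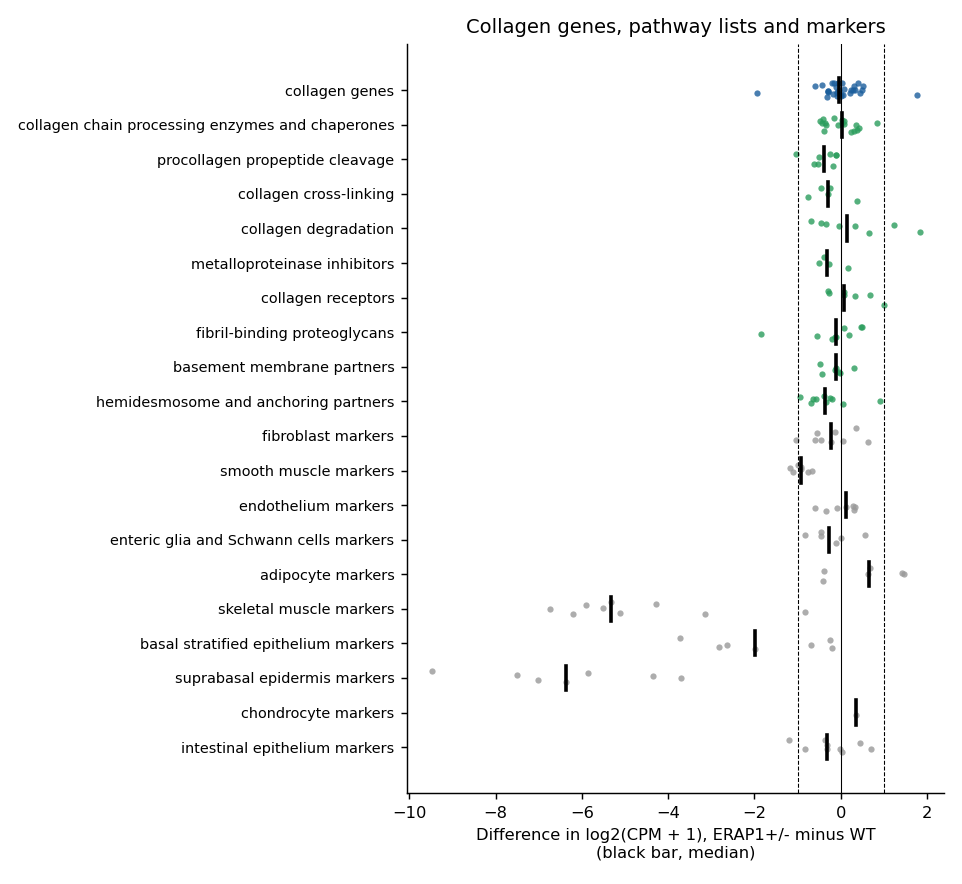
Difference in log2(CPM + 1), ERAP1+/- minus WT, of each gene with at least 10 reads over the 2 libraries, for the collagen genes (blue), the collagen pathway lists (green) and the cell type markers (grey), 1 point a gene with a black bar at the median; dashed lines mark 2-fold. The 31 collagen genes center on -0.05 with Col17a1 and Col6a4 apart, while the medians of skeletal muscle (-5.33), suprabasal epidermis (-6.37) and smooth muscle markers (-0.92) lie lower.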

How the data were processed

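RNA of intestine from 3 mice was combined for each genotype and sequenced from the 3′ ends of polyadenylated transcripts (single-end, 75 bp), as 1 library per genotype. Per gene symbol the authors deposited unnormalized counts. The methods name STAR with HTSeq in one place and Bowtie2 with RSEM in another, the submitters' processing notes name Bowtie2, RSEM and GRCm38, and which tools made the deposited counts is not stated. From the counts, TMM factors (0.958 for WT and 1.04 for ERAP1+/-) came from edgeR 4.0.16 (R 4.3.3), followed by CPM and log2(CPM + 1). Exact conditional binomial 95% intervals came from scipy 1.17.1 and were tested on simulated counts together with the rule for calls. The simulated counts held counting error only, so that test cannot speak to differences between mice or between pools. Groups follow the genotype labels. Quasi-likelihood tests cannot be fitted with 1 library per group. Mitochondrial and ribosomal RNA features took 18.0% and 16.7% of the reads.

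All collagen genes with at least 10 reads over the 2 libraries were named, and genes of the other lists where they differed more than 2-fold or define the list (of suprabasal and skeletal muscle markers 1 each), with further examples chosen after their values were seen. The members and lists were chosen with earlier results of these data known. The alternatives tried were scaling by the total, size factors of DESeq2 1.42.0, library sizes without mitochondrial and ribosomal RNA, a pseudocount of 0.1, other filters and other fold limits. Coordinates and coding sequences came from GENCODE M21 (GRCm38) and promoters from RefSeq (GRCm38.p6). The protein sequences were not used here. Some items are not reported here.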

Additional observations from a re-analysis of the deposited data

How the results depend on the processing

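No paired analysis was possible because only 1 library stands for WT and 1 for ERAP1+/-, and for that reason no library could be left out. All ratios of the 31 collagen genes recomputed with DESeq2 size factors and without mitochondrial and ribosomal RNA stayed within their counting intervals. Scaling by the totals moved 4 of the ratios out of these intervals. They were Col1a1 (1.05), Col1a2 (0.984), Col3a1 (1.10, with an interval of 1.07 to 1.14) and Col6a3 (0.887). With scaling by the totals, the median log2 difference of all genes at or over the level of 4 went from -0.03 to 0.10, which changed the direction of 5 collagen genes, Col1a1, Col4a6, Col6a2, Col8a1 and Col27a1, whose ratios were at most 1.05 under that scaling.

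The number of collagen genes called at the level of 4 was 0, and 2 with at least 10 reads in 1 library or with no filter. At the lower limit of 10 reads it was 2, and 0 with a 4-fold threshold, since the added 1 CPM reduces the log2 difference of Col17a1 to -1.94. With the main settings the summed ratio was 0.856 (0.805 to 0.911) for type VI, 0.945 for transmembrane and 1.02 for short chain genes. The medians with these settings were -0.31 for intestinal and -1.99 for basal stratified epithelium. Under scaling by the totals the summed ratios were 1.05 for fibrillar, 1.05 for type IV, 0.934 for type VI and 1.05 for fibril-associated genes. The medians under that scaling were -0.79 for smooth muscle and -0.18 for intestinal epithelium. Without the member with the most reads, the summed ratios were 1.01 for fibrillar (without Col1a2), 0.832 for type IV (Col4a1) and 0.921 for type VI (Col6a3). For transmembrane genes without Col23a1 the ratio was 0.712 (0.482 to 1.05), and for fibril-associated genes without Col14a1 it was 1.09. For short chain genes without Col8a1, where only Col8a2 had reads, it was 1.47 (0.787 to 2.85). With a pseudocount of 0.1 the medians were -6.55 for skeletal muscle, -2.76 for basal stratified epithelium and -7.61 for suprabasal epidermis, since genes near 0 reads move most. With members of at least 50 reads, that of basal stratified epithelium was -1.66. Depth limits the values of Col17a1, Col6a4 and Col7a1, which rest on 0 to 4 reads in 1 library.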
